A study of Anas platyrhynchos with 20 samples.

Results

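The SLC25 family, the carriers of the inner mitochondrial membrane, was described in the liver and the breast muscle of 10 male Runzhou white crest ducks. The members were the rows of the deposited expression table whose gene symbol is SLC25A followed by a number, and 32 of the 25117 genes met this rule (1 entry was left out). The rule itself used no measured value, though it was set with earlier results of these data known. Group HL held 5 livers and group HM 5 breast muscles of ducks fed a basal diet with 2% linseed oil, a source of the n-3 fatty acid α-linolenic acid, and groups CL and CM held 5 livers and 5 breast muscles of ducks fed the same basal diet with 2% duck oil. The feeding began at 28 days of age and lasted 28 days by the study's methods, while the labels give day 28. By the study's account of its libraries, the sequenced ducks had the highest n-3 fatty acid ratios under linseed oil and the lowest under the control diet, so the libraries are a selected subset of each diet group. Whether a liver and a muscle library with the same number came from the same duck is not given in the sources used here. Values are FPKM, fragment numbers corrected for gene length and library depth, so levels can be compared between genes.

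Mitochondria burn fuel behind a membrane that is tight to most solutes, and the SLC25 carriers are the proteins that pass nucleotides, phosphate, carboxylic acids, amino acids, cofactors and metal ions across it. Most of them exchange one solute for another. In liver the family feeds the synthesis of fatty acids, glucose and nitrogen waste products, and in muscle its main load is the export of ATP in exchange for ADP. Birds dispose of nitrogen mainly as uric acid and not as urea.

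The libraries held 15417718 to 16705165 fragments in liver and 11852903 to 13432987 in breast muscle. Hepatocyte markers (8 of 8 in the table) summed to 140310 to 255056 FPKM in liver and 24.9 to 399 FPKM in breast muscle, and muscle fibre markers (7 of 8) to 0.830 to 5.18 FPKM in liver and 30897 to 61966 FPKM in breast muscle, so the tissue labels fitted the data. Adipocyte markers (3 of 4) summed to 8.29 to 30.9 FPKM in liver and 73.9 to 201 FPKM in breast muscle. They did not share a direction. By the calling rule given below, 2 of the 3 were higher in liver and 1 in breast muscle on each diet. Lymphocyte markers (3 of 4) summed to at most 11.7 FPKM in any library. None of the 7 red blood cell symbols is in the table, and the 7 haemoglobin entries found by their descriptions were used in their place. In these bulk samples, fewer cells of a type and less RNA per cell cannot be told apart.

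The tissues differed far more than the diets. In HL vs. HM, 30 of the 32 members passed the filter on low values (5 or more libraries at 1 FPKM or above) and 21 of these were called, which required a limma adjusted p below 0.05 together with a change of more than 1 log2 unit in either direction. Of all genes tested there 40.2% were called, against 70.0% of the members tested. The 12 members higher in liver stand against a background of 19.8% of all genes, and the 9 members higher in breast muscle against 20.4%. In CL vs. CM, 31 members were tested and 21 were called (67.7%, background 42.3%), again 12 higher in liver (background 20.4%) and 9 higher in breast muscle (background 21.9%). The same 20 members were called in both comparisons, with the same sign in each, while SLC25A32 was called in HL vs. HM alone and SLC25A33 in CL vs. CM alone. The difference between these comparisons is the interaction of diet and tissue, described last. The median log2 fold change of the tested members was 0.20 in HL vs. HM and was 0.31 in CL vs. CM, beside 0.01 and 0.02 over all genes. SLC25A48 and SLC25A21 passed the filter through the liver libraries alone, as neither reached 1 FPKM in any muscle library. Both are among the 12 members called higher in liver on each diet, so the shares of members given above include them. Members called higher in breast muscle could likewise meet the filter only with the muscle libraries, as SLC25A15 did on both diets and SLC25A12 and SLC25A24 in CL vs. CM.

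**Figure D1:**
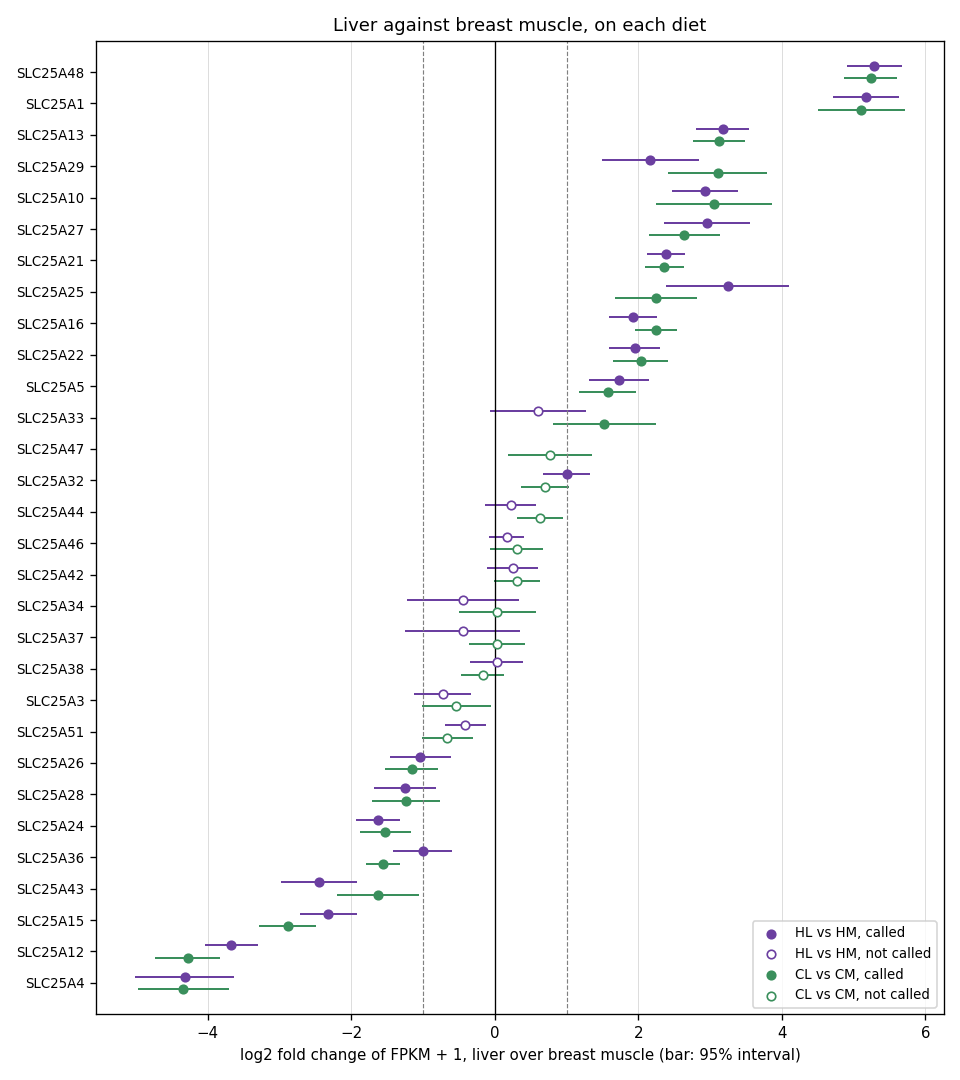
Log2 fold change of FPKM + 1, liver over breast muscle, for 30 of the 31 members tested on at least 1 diet, with 95% intervals; purple is HL vs. HM, green is CL vs. CM, filled points were called, and dashed lines mark the fold threshold. The 19 members drawn that were called on both diets lie on the same side of 0 on each, from SLC25A48 at 5.29 and 5.24 to SLC25A4 at -4.32 and -4.34.

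The deposited values had been scaled by the authors for library composition, and the muscle libraries were divided by more than their own totals (1.13 to 1.56 times) and the liver libraries by less (0.614 to 0.916 times). Scaling to total fragments instead moved the median log2 fold change of all genes by -0.61 for HL vs. HM and by -0.83 for CL vs. CM, and the calls over all genes then split into 1350 on the liver side and 3535 on the muscle side in HL vs. HM, with 1225 and 4403 for CL vs. CM. The members called then split into 11 on the liver side and 12 on the muscle side in HL vs. HM, with 10 and 11 for CL vs. CM. The median log2 fold changes of the members became -0.43 and -0.47, beside -0.59 and -0.79 over all genes. The split and the sign of the medians given above thus depend on the scaling. None of the members called above turned its sign under that scaling, and 20 of 21 were still called in HL vs. HM, as were 19 of 21 in CL vs. CM. The signs that did turn were those of SLC25A38, SLC25A42, SLC25A44 and SLC25A46 in HL vs. HM, and those of SLC25A32, SLC25A34, SLC25A37, SLC25A42, SLC25A44 and SLC25A46 in CL vs. CM, so no direction is read from the signs of these, and the values given for them further on are those of the deposited scale.

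The largest contrast in level was that of an ADP/ATP carrier. SLC25A4, the ADP/ATP carrier of heart and skeletal muscle in mammals, was at 23.7, 67.1, 71.3, 91.9 and 70.6 FPKM in HL livers, against 1091, 1328, 952, 1308 and 1414 FPKM in HM muscles. It was at 87.0, 28.6, 62.1, 67.9 and 47.9 FPKM in CL livers, against 1571, 932, 1281, 1227 and 803 FPKM in CM muscles. Every muscle library lay above every liver library, and the lowest muscle value was 803 FPKM. The log2 fold change was -4.32 ± 0.32 (SE) in HL vs. HM and was -4.34 ± 0.29 in CL vs. CM, with adjusted p from limma of 1.17e-07 and 2.50e-08. SLC25A5, the ADP/ATP carrier of growing and non-muscle cells in mammals, ran the other way, at 162 ± 23.2 FPKM in HL, against 48.9 ± 10.9 in HM, and at 157 ± 31.6 in CL, against 51.9 ± 9.81 in CM (SD, n = 5 each). Its fold changes were 1.73 and 1.58 on the log2 scale, and that in CL vs. CM fell to 0.58 and lost its call when values were scaled to total fragments. A further entry annotated as ADP/ATP translocase 3 has the RefSeq symbol SLC25A6. The deposited table names it LOC101799034, so it is no member by the rule. It is 1 of 14 carrier entries found by description that carry another symbol there. This entry held 601 to 1322 FPKM in liver and 47.1 to 71.9 FPKM in breast muscle. Over SLC25A4, SLC25A5 and that entry, SLC25A4 supplied 2.74 to 8.68% of the FPKM in liver and 85.4 to 92.8% in breast muscle, while the third entry supplied 74.2 to 85.7% in liver and 3.70 to 7.64% in breast muscle. These genes are related in sequence and only uniquely mapped reads were counted, so any reads shared between them would be missing. How many such reads there were was not tested.

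The phosphate that ATP synthase needs enters through SLC25A3, the phosphate carrier. It was at 244, 259, 356, 249 and 257 FPKM in HL livers, against 432, 482, 355, 493 and 494 FPKM in HM muscles, and at 283, 212, 304, 257 and 324 FPKM in CL livers, against 567, 295, 480.3, 416 and 289.9 FPKM in CM muscles. One HL liver at 356 FPKM and 2 CM muscles at 295 and 290 FPKM made the tissues overlap. The log2 fold change was -0.73 ± 0.18 in HL vs. HM and was -0.53 ± 0.22 in CL vs. CM (limma, adjusted p = 0.00402 and 0.0499), short of the fold threshold in each. Scaled to total fragments it was -1.45 and -1.54 and was called.

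**Figure D2:**
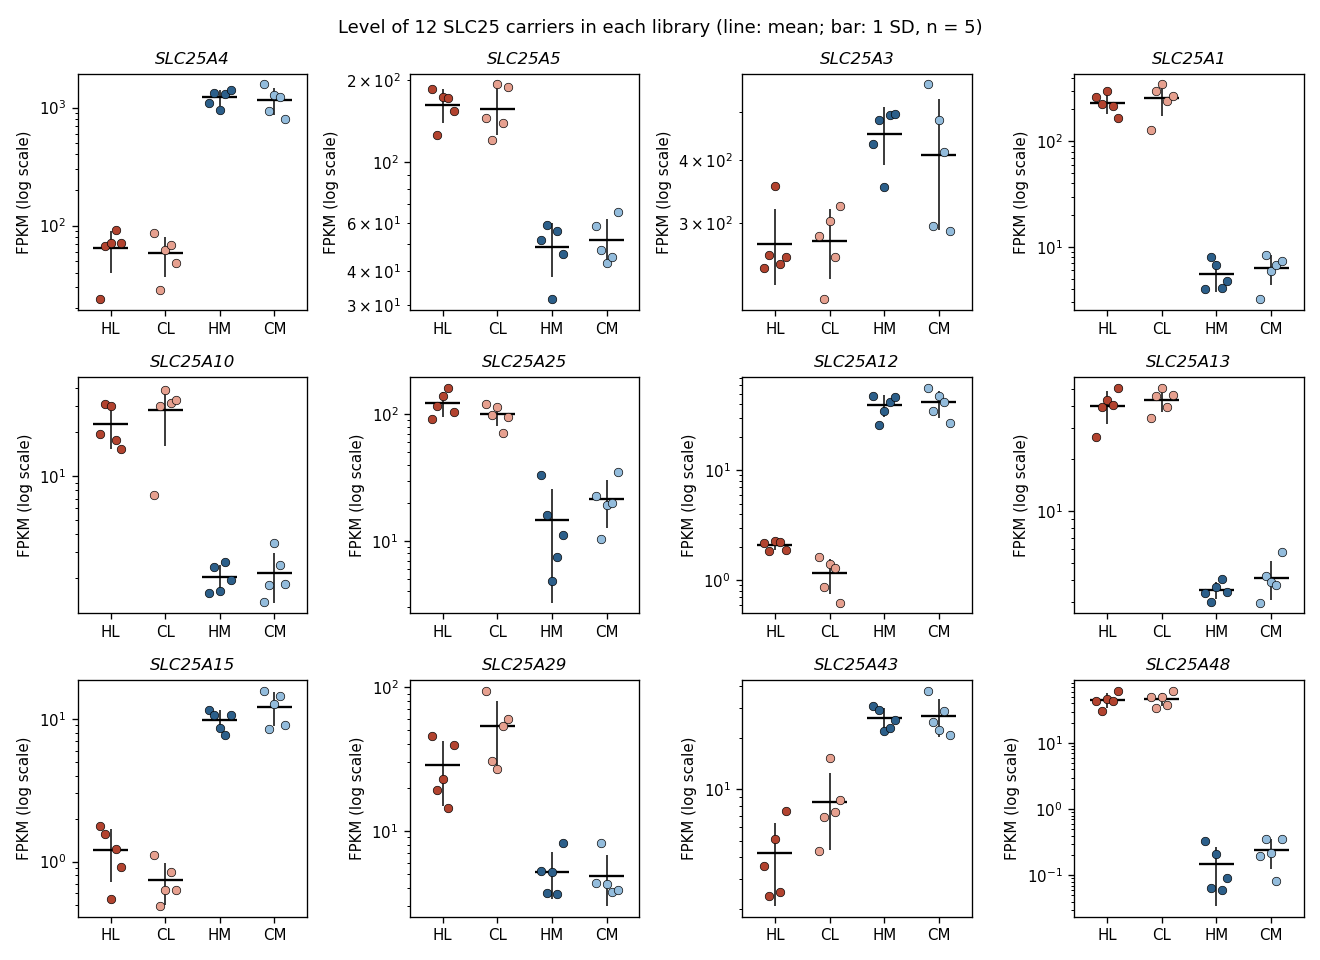
FPKM on a log axis in each of the 20 libraries for 12 carriers, with the mean as a line and 1 SD as a bar (n = 5; the axes differ between panels). In every panel but that of SLC25A3 the liver groups (HL, CL) and the muscle groups (HM, CM) are apart, and for SLC25A3 they overlap between 290 and 356 FPKM.

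Summed over the 32 members, the family was at 1043 to 1314 FPKM in HL livers, against 1517 to 2178 FPKM in HM muscles, and at 1029 to 1350 FPKM in CL livers, against 1370 to 2452 FPKM in CM muscles. The mean difference, liver minus breast muscle, was -815 FPKM on linseed oil and -689 FPKM on the control diet (exact two-sided permutation test, p = 0.00794 each, the smallest that 5 against 5 libraries allow, and 0.0159 after adjustment over the 8 tests of sums and shares). The size of this difference depended on the scaling, at -1628 and -1785 FPKM when scaled to summed FPKM and -1648 and -1757 FPKM when scaled to total fragments (exact permutation test, p = 0.00794 each), where the larger value was that of the control diet. The sum leaves out the translocase 3 entry, which averaged 985 FPKM in HL, against 66.5 in HM, and 952 in CL, against 62.8 in CM. Counted in, that entry would turn the sign of the difference on the deposited scale on both diets. No tissue is therefore read as higher for the family as a whole. SLC25A4 and SLC25A5 together made up 20.3% of the sum in HL, against 65.4% in HM, and 18.5% in CL, against 65.4% in CM, differences of -45.1 and -46.9 percentage points (exact permutation test, p = 0.00794 each, adjusted 0.0159). With the translocase 3 entry counted in, an alternative added after the data were seen, the differences shrank to -9.63 and -11.9 points (exact permutation test, p = 0.0159 and 0.00794), since the range became 48.7 to 64.9% in liver and 64.4 to 68.1% in breast muscle. The 5 highest members held 70.9 to 78.8% of the sum in liver and 89.5 to 93.9% in breast muscle. The permutation tests between tissues took each library as a separate animal, though by the study's account ducks gave both tissues.

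**Figure D3:**
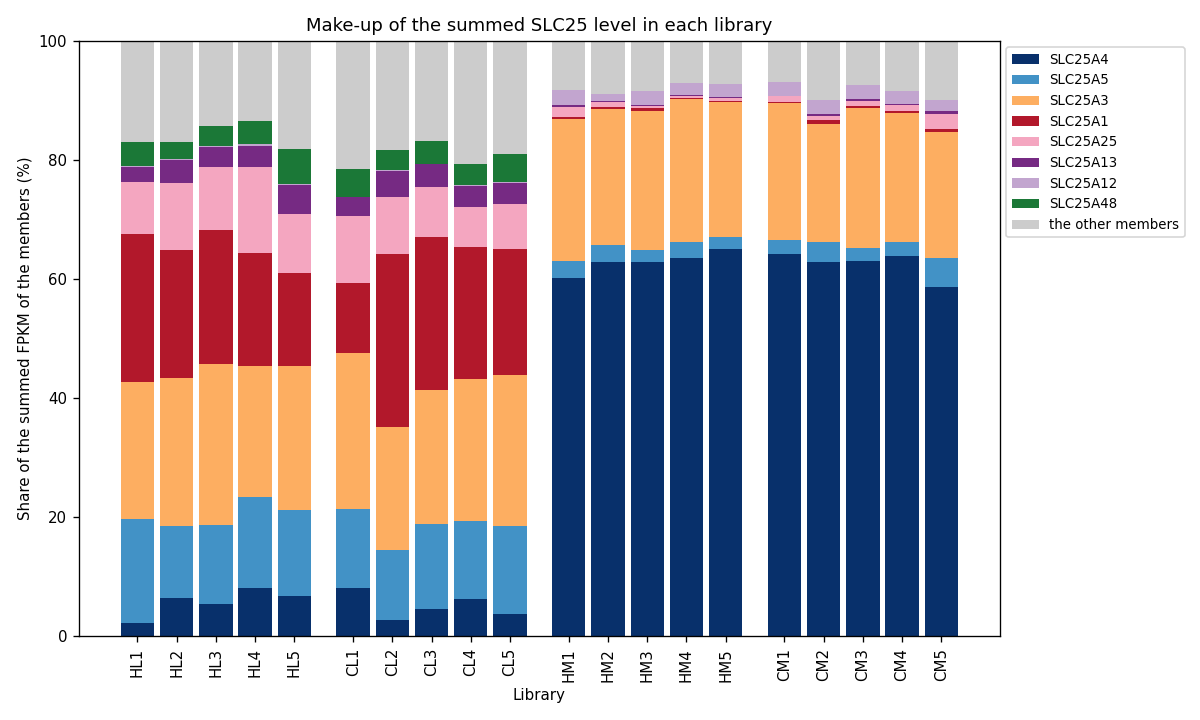
Share of the summed FPKM of the 32 members taken by 8 carriers and by the others together, in each of the 20 libraries. SLC25A4 takes 58.6 to 64.9% in every muscle library (HM, CM) and 2.23 to 8.15% in every liver library (HL, CL), where SLC25A3, SLC25A1, SLC25A5 and SLC25A25 fill most of the bar.

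SLC25A1, SLC25A10 and SLC25A21, which carry carboxylic acids, were each called higher in liver on both diets. SLC25A1, the citrate carrier that exports the carbon for fatty acid synthesis, was at 263, 224, 296, 214 and 165 FPKM in HL livers, against 4.02, 7.98, 6.77, 4.07 and 4.78 FPKM in HM muscles. It was at 128, 299, 346, 239 and 269.9 FPKM in CL livers, against 3.19, 8.47, 5.95, 6.70 and 7.40 FPKM in CM muscles. The groups were far apart, and CL1, at 128 FPKM the lowest liver, was still above the highest muscle at 8.47 FPKM. The log2 fold change was 5.17 ± 0.21 in HL vs. HM and was 5.11 ± 0.28 in CL vs. CM (limma, adjusted p = 4.65e-10 and 3.90e-09). SLC25A10, the dicarboxylate carrier that exchanges malate and succinate for phosphate, averaged 22.6 ± 7.37 FPKM in HL, against 2.02 ± 0.443 in HM, and 28.1 ± 12.1 in CL, against 2.17 ± 0.812 in CM, with log2 fold changes of 2.93 and 3.06. SLC25A21, the carrier of 2-oxoadipate and 2-oxoglutarate, ranged from 4.45 to 5.73 FPKM in HL and 3.53 to 5.87 in CL, while breast muscle held 1 to 14 fragments of it per library (0.0217 to 0.284 FPKM in HM, 0.0447 to 0.163 in CM). Its log2 fold changes of 2.38 and 2.36 are on the scale of FPKM + 1 and understate the ratio.

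The enzymes that handle citrate and malate did not share one direction. Of 8 tested, 2 were higher in liver and 5 in breast muscle on either diet, where 19.8 and 20.4% of all genes were (HL vs. HM) and 20.4 and 21.9% (CL vs. CM). These shares are the background of each gene list described below as well. PCK1, which starts glucose synthesis from oxaloacetate, stood at 6.06 (HL vs. HM) and 5.49 (CL vs. CM) on the log2 scale. CS, the citrate synthase of the tricarboxylic acid cycle, had -4.57 and -4.57. This list had a median of -2.11 in HL vs. HM and of -2.35 in CL vs. CM on the same scale.

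The 2 aspartate/glutamate carriers, which bring reducing power into mitochondria as part of the malate-aspartate shuttle, changed places between the tissues. SLC25A12 (aralar) was at 2.21, 1.85, 2.30, 2.23 and 1.89 FPKM in HL livers, against 47.2, 26.1, 34.7, 41.6 and 46.6 FPKM in HM muscles. In CL livers it was at 1.62, 0.870, 1.41, 1.300 and 0.628 FPKM, against 56.8, 34.8, 47.7, 41.7 and 27.0 FPKM in CM muscles. The highest liver was at 2.30 FPKM and the lowest muscle at 26.1 FPKM. SLC25A13 (citrin, the form of the mammalian liver) was at 26.7, 39.6, 43.6, 40.6 and 51.1 FPKM in HL livers, against 3.37, 2.98, 3.66, 4.07 and 3.40 FPKM in HM muscles. In CL livers it was at 34.4, 45.6, 51.3, 39.4 and 46.6 FPKM, against 2.96, 4.21, 3.89, 3.76 and 5.80 FPKM in CM muscles. Again the tissues did not overlap, in the opposite order. The log2 fold changes of SLC25A12 were -3.67 ± 0.17 and -4.28 ± 0.21, and those of SLC25A13 were 3.18 ± 0.17 and 3.13 ± 0.17 (limma, largest adjusted p = 5.39e-09). In CL vs. CM, SLC25A12 met the filter only with the muscle libraries, so its p-value there is no separate support. SLC25A12 made up 1.33 to 7.64% of the sum of the pair in liver and 82.3 to 95.05% in breast muscle.

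SLC25A22, a glutamate carrier, averaged 9.89 ± 1.88 FPKM in HL, against 1.81 ± 0.468 in HM, and 11.3 ± 1.25 in CL, against 2.07 ± 0.816 in CM, with log2 fold changes of 1.95 and 2.03. Of the 7 shuttle enzymes, 4 were higher in breast muscle in HL vs. HM and none was higher in liver, and in CL vs. CM 4 were higher in breast muscle and 1 in liver. GPD2, the mitochondrial glycerol-3-phosphate dehydrogenase, led them at 0.602 ± 0.0761 FPKM in HL, against 28.0 ± 14.5 in HM, and 0.456 ± 0.221 in CL, against 21.4 ± 4.51 in CM.

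SLC25A15 and SLC25A29, carriers of basic amino acids, also had opposite directions. SLC25A15, the ornithine carrier, was at 1.77, 1.56, 0.545, 1.23 and 0.922 FPKM in HL livers, against 11.6, 10.6, 8.64, 7.77 and 10.7 FPKM in HM muscles. It was at 1.11, 0.490, 0.630, 0.846 and 0.632 FPKM in CL livers, against 15.7, 8.52, 12.7, 14.5 and 8.99 FPKM in CM muscles. Muscle was higher in every library, with log2 fold changes of -2.32 ± 0.18 and -2.88 ± 0.18 (limma, adjusted p = 2.07e-07 and 1.54e-08). The livers alone did not meet the filter for SLC25A15, which was not tested in HL vs. CL. It passed here only with the muscle libraries, so these p-values are no separate support for the difference. SLC25A29, which carries arginine and lysine, was at 46.0, 19.3, 23.1, 14.3 and 39.7 FPKM in HL livers, against 5.22, 3.68, 5.20, 3.66 and 8.24 FPKM in HM muscles. It was at 94.3, 30.6, 27.1, 54.0 and 60.2 FPKM in CL livers, against 4.35, 8.21, 4.29, 3.73 and 3.85 FPKM in CM muscles. Liver was higher in every library, with log2 fold changes of 2.17 ± 0.31 and 3.11 ± 0.32 (limma, adjusted p = 4.80e-05 and 1.60e-06).

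In the list of ornithine and glutamate enzymes, 4 of 6 tested were higher in liver on linseed oil, while on the control diet 4 of 5 were higher in liver and 1 in breast muscle. GLUL, the glutamine synthetase, was at 515 ± 96.0 FPKM in HL, against 82.3 ± 60.7 in HM, and at 599 ± 98.5 in CL, against 76.0 ± 18.8 in CM. The urea cycle enzymes CPS1 and OTC, named here after their values were seen, averaged at most 0.151 FPKM in any group and were not tested.

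SLC25A48 had the largest ratio of the members called. It has been linked to choline import in mammals, and it was at 43.1, 30.1, 45.6, 44.0 and 61.9 FPKM in HL livers, against 0.326, 0.0652, 0.212, 0.0599 and 0.0901 FPKM in HM muscles. It was at 49.3, 34.4, 50.4, 37.6 and 61.6 FPKM in CL livers, against 0.198, 0.353, 0.220, 0.0827 and 0.3605 FPKM in CM muscles. The muscle values rest on 3 to 22 fragments per library. On the scale of FPKM + 1 the log2 fold changes were 5.29 ± 0.18 and 5.24 ± 0.17 (limma, adjusted p = 8.07e-11 and 2.38e-11). SLC25A48 passed the filter through the liver libraries alone, so these p-values are no separate support for the difference. SLC25A44, which carries branched-chain amino acids, and SLC25A38, which is needed for glycine import in haem synthesis, were called in neither tissue comparison, and their signs turned with the scaling in at least 1 of the 2 (log2 fold changes of 0.22 and 0.63, and of 0.03 and -0.17).

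Among carriers of nucleotides and cofactors, the pair of ATP-Mg/phosphate carriers, which adjust the adenine nucleotide pool and are gated by calcium, had opposite directions. SLC25A25 was at 92.0, 117, 138, 163 and 105 FPKM in HL livers, against 33.2, 16.1, 4.83, 7.44 and 11.1 FPKM in HM muscles, and SLC25A24 averaged 1.33 ± 0.248 FPKM in HL, against 6.23 ± 1.02 in HM. In ducks on the control diet SLC25A25 was at 121, 99.3, 115, 70.9 and 95.8 FPKM in CL livers, against 22.7, 10.4, 19.1, 19.99 and 34.8 FPKM in CM muscles, and SLC25A24 averaged 1.17 ± 0.218 FPKM in CL, against 5.35 ± 1.38 in CM. The log2 fold changes were 3.24 and 2.25 for SLC25A25 and -1.63 and -1.53 for SLC25A24. In CL vs. CM, SLC25A24 met the filter only with the muscle libraries, so its call there is no separate support. SLC25A25 varied most in HM, where its 5 libraries covered a range from 4.83 to 33.2 FPKM.

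Of the other cofactor carriers, those higher in breast muscle on both diets were SLC25A26, the S-adenosylmethionine carrier (-1.04 and -1.16 on the log2 scale in HL vs. HM and CL vs. CM), and SLC25A36, a pyrimidine nucleotide carrier (-1.001 and -1.56). Higher in liver on both was SLC25A16, a carrier whose substrate is less certain (1.92 and 2.24). SLC25A32, linked to folate and FAD import, was called in HL vs. HM (1.004) and not in CL vs. CM (0.70), and SLC25A33, a pyrimidine nucleotide carrier, was called in CL vs. CM (1.53) and not in HL vs. HM (0.60). Both calls were lost when values were scaled to summed FPKM or to total fragments, with SLC25A32 at 0.49 and 0.46 in HL vs. HM (limma, adjusted p = 0.0854 and 0.0512) and SLC25A33 at 0.69 and 0.73 in CL vs. CM (adjusted p = 0.0618 and 0.0639). SLC25A32, SLC25A36 and SLC25A26 lay at the fold threshold in HL vs. HM. Leaving out HL1, HL4, HM2 or HM4 took SLC25A32 below it (to 0.945, 0.969, 0.911 and 0.992), leaving out HL1, HL2, HL3, HL4, HM3, HM4 or HM5 did so for SLC25A36 (-0.997 to -0.934), and leaving out HL4, HL5 or HM2 for SLC25A26 (-0.996, -0.983 and -0.873). SLC25A51, the NAD+ carrier, reached adjusted p = 0.0170 and 0.00294 by limma at folds of -0.41 and -0.66, short of the fold threshold. It passed in CL vs. CM when scaled to summed FPKM (-1.53) or to total fragments (-1.50) and in HL vs. HM under the second of these (-1.03). SLC25A42, a coenzyme A carrier, passed neither threshold.

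The 2 mitoferrins carry iron for haem and iron-sulphur clusters. SLC25A28 (mitoferrin 2, the broadly expressed form) averaged 14.5 ± 3.03 FPKM in HL, against 36.2 ± 9.91 in HM, and 15.9 ± 5.28 in CL, against 37.3 ± 4.43 in CM, with log2 fold changes of -1.25 and -1.24. SLC25A37 (mitoferrin 1, the form of red cell precursors in mammals) was at 3.09, 2.24, 2.17, 3.29 and 3.12 FPKM in HL livers, against 2.82, 14.7, 2.31, 2.38 and 4.20 FPKM in HM muscles. It was at 2.96, 4.68, 3.49, 2.73 and 4.15 FPKM in CL livers, against 2.41, 3.81, 2.64, 4.66 and 4.21 FPKM in CM muscles. HM2 stood apart at 14.7 FPKM, and the other 19 libraries lay between 2.17 and 4.68 FPKM. The same library had a summed haemoglobin level of 76154 FPKM, while the other HM libraries had 3278 to 4837 FPKM, the CM libraries 5074 to 9628 FPKM, the HL livers 1033 to 2714 FPKM and the CL livers 717 to 7595 FPKM. Bird red blood cells keep their nucleus, and the part of blood RNA in this value was not tested. SLC25A37 was not called in either tissue comparison (-0.45, adjusted p = 0.308, and 0.03, adjusted p = 0.898, limma), its sign in CL vs. CM turned with the scaling, and leaving out HM2 gave -0.04 for HL vs. HM. SLC25A28 was also highest in HM2, at 52.4 FPKM, and its value without that library was -1.11 (HL vs. HM).

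**Figure D4:**
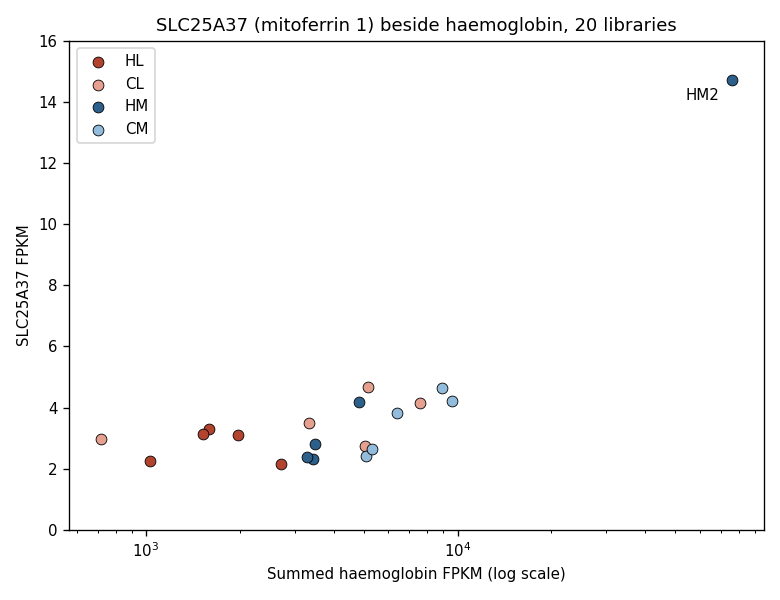
SLC25A37 FPKM (linear axis) against the summed FPKM of 7 haemoglobin entries (log axis) in each of the 20 libraries, coloured by group. HM2 lies at 14.7 and 76154 FPKM, away from the other 19 libraries, which all lie at or below 4.68 and 9628 FPKM.

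The members left have uncoupling or poorly known roles. SLC25A27, the uncoupling protein 4 of mammalian brain, averaged 21.3 ± 7.30 FPKM in HL, against 1.83 ± 0.977 in HM, and 19.8 ± 3.30 in CL, against 2.47 ± 1.19 in CM, with log2 fold changes of 2.96 and 2.64. The entry annotated as mitochondrial uncoupling protein 3 (LOC101794508), no member by its symbol, had 0 fragments in all 10 liver libraries, where a count of 0 allows up to 3 fragments per library, and held 16.3 to 143 FPKM in HM and 38.8 to 109 FPKM in CM. SLC25A43, whose substrate is not settled, was at 3.57, 2.37, 5.13, 2.52 and 7.48 FPKM in HL livers, against 30.5, 29.1, 22.00, 22.7 and 25.4 FPKM in HM muscles. It was at 4.33, 6.90, 15.1, 7.40 and 8.59 FPKM in CL livers, against 37.7, 24.9, 22.3, 28.7 and 20.8 FPKM in CM muscles. Muscle was above liver in every library, with log2 fold changes of -2.45 and -1.62. SLC25A34, SLC25A46 (an outer membrane protein of mitochondrial fusion and fission) and SLC25A47 (a liver-enriched member in mammals) were not called by limma at the main settings. SLC25A47 was not tested in HL vs. HM. In CL vs. CM it had a log2 fold change of 0.77 (limma, adjusted p = 0.0228), short of the fold threshold alone. SLC25A47 was called in CL vs. CM by voom (1.28, adjusted p = 0.0167), with a pseudocount of 0.1 (1.23) and after quantile normalization (1.11), and SLC25A34 in HL vs. HM when scaled to total fragments (-1.03). SLC25A40, linked to glutathione import, had 0 to 2 fragments per library, under the 3 fragments that a count of 0 allows, so no level or fold is given for it.

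Linseed oil changed no member past the threshold in liver. In HL vs. CL, 29 members were tested and 0 were called by limma (background 0.126%, 12 of 9543 genes), and voom on the recovered fragments also called 0. With DESeq2 and the same thresholds, the study reported far more genes in this comparison, so the background given is that of the limma fit. DESeq2 was not run here. At an unadjusted p below 0.05, limma counted 4 members, 13.8% of those tested, beside 12.3% of all genes. The smallest adjusted p of a member was 0.160. The median log2 fold change was -0.06 over the members and -0.03 over all genes.

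SLC25A36 and SLC25A12 were the 2 members whose HL and CL values did not overlap, both with HL higher, beside 2.8% of all genes with groups that did not overlap in either direction. SLC25A36 was at 1.82, 2.03, 1.63, 2.00 and 3.02 FPKM in HL, against 1.11, 1.07, 1.25, 1.35 and 1.006 FPKM in CL. Its log2 fold change was 0.51 ± 0.14 (95% interval 0.21 to 0.81; limma, unadjusted p = 0.00305, adjusted p = 0.160). SLC25A12, with the values given above, had 0.53 ± 0.15 (95% interval 0.21 to 0.86; unadjusted p = 0.00398, adjusted p = 0.174, limma). Both are low in liver, so the scale of FPKM + 1 understates their folds. Under other settings with all libraries kept, the folds were 0.42 to 0.82 for SLC25A36 and 0.46 to 0.94 for SLC25A12. Without HL5, the highest HL library, SLC25A36 had a fold change of 0.41. Without CL1, the smallest adjusted p of a member fell to 0.0514, that of SLC25A12 (limma). The calls over all genes were then 36 higher and 63 lower in HL, beside 12 in all with every library kept. No member was called with any library left out.

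SLC25A43 and SLC25A29 had the largest differences in the other direction. The HL values of SLC25A43 were 2.37 to 7.48 FPKM, against 4.33 to 15.1 FPKM in CL, with overlap, and its log2 fold change was -0.86 ± 0.32 (95% interval -1.55 to -0.17; limma, adjusted p = 0.291). SLC25A29 ranged from 14.3 to 46.0 FPKM in HL, against 27.1 to 94.3 FPKM in CL, also with overlap, and had -0.86 ± 0.39 (95% interval -1.71 to -0.02; limma, adjusted p = 0.398). SLC25A44 was at 6.18 ± 1.46 FPKM in HL, against 8.31 ± 1.57 in CL, and SLC25A47 at 1.07 ± 0.370 in HL, against 2.38 ± 1.69 in CL, at adjusted p = 0.406 and 0.417 by limma. The abundant carriers sat close to 0, with 95% intervals of -0.40 to 0.38 for SLC25A3, -0.35 to 0.46 for SLC25A5, -0.16 to 0.73 for SLC25A25 and -0.68 to 0.49 for SLC25A1, so that a change of 1 log2 unit lies outside each of them.

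Marker genes of other cells were read beside these values in liver. In HL vs. CL, 1 of 6 macrophage markers and 2 of 5 endothelial markers were called by limma, all higher in HL, and 0 of 8 hepatocyte markers. All 6 and all 5 had positive log2 fold changes (medians 2.18 and 1.08), and all 8 hepatocyte markers had negative ones (median -0.30). A fit with a block for the replicate number called no gene of the table. In HL vs. CL that block joins different ducks, so nothing about these calls is read from it. The 6 macrophage markers in the table (of 7) summed to 96.8 to 470.4 FPKM in HL, against 28.2 to 137.9 FPKM in CL, and the 5 endothelial markers to 33.5 to 41.0 FPKM in HL, against 11.4 to 22.2 FPKM in CL. Their part in the values of SLC25A36, SLC25A12 and the other members was not tested. The summed family level was 1121 ± 113 FPKM in HL and 1163 ± 141 FPKM in CL, a difference of -42.1 FPKM (exact permutation test, p = 0.675, adjusted 0.807) whose sign turned under other scalings and without CL3. The share of SLC25A4 and SLC25A5 differed by 1.76 percentage points (exact permutation test, p = 0.286, adjusted 0.457).

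**Figure D5:**
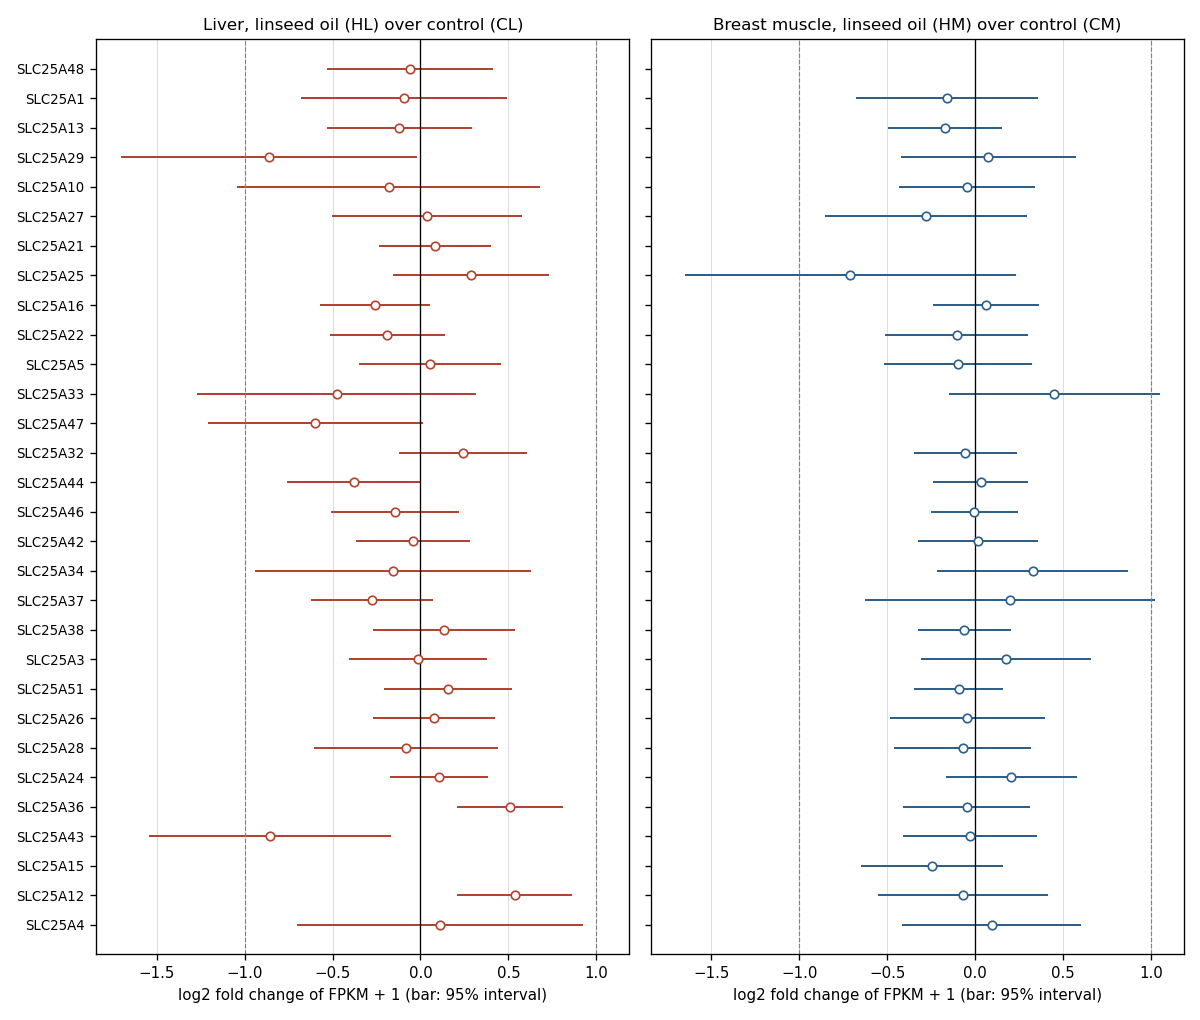
Log2 fold change of FPKM + 1, linseed oil over control, with 95% intervals, in liver (left, HL vs. CL, 29 members) and breast muscle (right, HM vs. CM, 27 of the 28 members), in the order of the tissue difference; open points were not called, and dashed lines mark the fold threshold. Every point is open, and in liver those of SLC25A36 and SLC25A12 lie at 0.51 and 0.53 and those of SLC25A43 and SLC25A29 at -0.86 and -0.86.

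In breast muscle, 28 members were tested in HM vs. CM and 0 were called by limma (background 0%, 0 of 10148 genes) or by voom. The study reported far more genes here too, with DESeq2 and the same thresholds, so this background also belongs to the limma fit. No member had an unadjusted p below 0.05, beside 5.5% of all genes, and no member's groups failed to overlap, beside 1.23% of all genes. The smallest adjusted p of a member was 0.921. The median log2 fold change was -0.05 over the members and 0.00 over all genes.

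SLC25A25 was at 33.2, 16.1, 4.83, 7.44 and 11.1 FPKM in HM, against 22.7, 10.4, 19.1, 19.99 and 34.8 FPKM in CM, and had the smallest unadjusted p, with a log2 fold change of -0.71 ± 0.43 (95% interval -1.65 to 0.23; limma, unadjusted p = 0.126). SLC25A33 followed at 3.96 ± 1.92 FPKM in HM, against 2.50 ± 0.921 in CM (0.45 on the log2 scale). The SLC25A33-like entry, no member, had the other sign. Its log2 fold change was -0.42 in HM vs. CM and -0.92 in HL vs. CL (limma, adjusted p = 0.847 and 0.217). The next 4 members by unadjusted p were SLC25A15 (-0.24), SLC25A34 (0.33), SLC25A24 (0.20) and SLC25A13 (-0.17). SLC25A4, by far the most abundant member there, had a log2 fold change of 0.09 with a 95% interval of -0.41 to 0.60. The summed family level was 1936 ± 272 FPKM in HM and 1852 ± 438 FPKM in CM, a difference of 84.0 FPKM (exact permutation test, p = 0.706, adjusted 0.807), and the share of SLC25A4 and SLC25A5 differed by -0.08 percentage points (exact permutation test, p = 0.929, adjusted 0.929).

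An interaction term fitted to all 20 libraries asked whether the diet differences of the 2 tissues were unlike. Of 31 members tested 0 were called by limma (background 0.00888%, 1 of 11256 genes), and 4 had an unadjusted p below 0.05, 12.9% of the members beside 8.11% of all genes. The smallest unadjusted p values from limma were those of SLC25A36 (0.56 ± 0.21 log2 units, unadjusted p = 0.0158, adjusted p = 0.449), SLC25A12 (0.60 ± 0.27, adjusted p = 0.570) and SLC25A43 (-0.83 ± 0.37, adjusted p = 0.582), given as the log2 fold change in liver minus that in breast muscle. SLC25A32 and SLC25A33, each called between the tissues on 1 diet alone, had adjusted p = 0.787 and 0.665 in this test, so a difference between the diets was not shown for them.

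Proteins that work with the carriers were read from fixed lists, 85 of whose 98 genes are in the table. None was called in HL vs. CL or HM vs. CM, where 9 of 77 and 2 of 78 tested genes had an unadjusted p below 0.05 (limma; 11.7 and 2.56%, beside 12.3 and 5.5% of all genes). In HL vs. HM 34 of 81 were called, 17 in each direction (41.98%, beside 40.2% of all genes), and in CL vs. CM 38 of 80, 21 higher in liver and 17 in breast muscle (47.5%, beside 42.3%). These shares are near those of all genes, and the split followed the scaling, with 12 higher in liver and 26 in breast muscle in HL vs. HM, and 10 and 29 for CL vs. CM, when scaled to total fragments. Of the chaperones and translocases that insert carriers into the membrane, 0 of 10 were called on linseed oil (HL vs. HM) and 1 of 10 on the control diet (TIMM13, 1.04), while 3 and 6 of 10 had an adjusted p below 0.05, all with higher values in liver. Their median log2 fold changes were 0.38 and 0.51, beside 0.01 and 0.02 over all genes, and -0.29 and -0.40, beside -0.59 and -0.79, when scaled to total fragments. Of 16 other inner membrane transporters 8 were called in each comparison, 6 of them higher in liver, led by the sideroflexins SFXN1, a serine transporter (3.96 and 4.65), and SFXN2 (3.93 and 3.66). Of the 5 genes listed under outer membrane channels, 3 were higher in breast muscle on linseed oil and 2 on the control diet. Among them were VDAC2, a pore for metabolites and ATP (-2.21 and -2.10), and TSPO2 (-2.76 and -2.85). Whether TSPO2 belongs to that membrane was not checked. For haem and iron-sulphur synthesis 1 of 9 was called on linseed oil and 4 of 9 on the control diet, with FDX1, a mitochondrial ferredoxin, higher in liver in each (2.72 and 3.23) and ALAS1, the first enzyme of haem synthesis, at -0.64 and -1.18. Of 8 regulators of mitochondrial biogenesis 2 were called on linseed oil and 1 on the control diet, where PPARA, a nuclear receptor that turns on fatty acid oxidation, was higher in liver in each (4.19 and 3.77) and ESRRG was not called (0.83 and 0.70). Of 10 general mitochondrial proteins 3 were higher in liver and 2 in breast muscle in each comparison, among them the chaperonin HSPE1 (1.77 and 2.05) and the cristae protein CHCHD3 (-2.32 and -2.02). The 2 carrier homologues MTCH1 and MTCH2 were not called.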

How the data were processed

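RNA was extracted with Trizol from liver and breast muscle, mRNA was purified on poly-T beads, and libraries were made with the NEBNext Ultra kit. The authors aligned clean reads with HISAT2 2.0.5 to the duck genome ZJU1.0 and counted uniquely mapped reads. The strand setting of the counting is not given in the sources used here. The reference table at hand is of another duck assembly and served for names alone, so no coordinates are given. The table the authors deposited gives FPKM and gene length for 25117 genes, with 20 library columns, all of them used. Groups and replicate numbers were taken from the sample titles. Within a library, FPKM times gene length was a whole multiple of 1 step for 100% of values (tolerance 0.02), which gave the fragments per gene and the depth. The deposited FPKM denominators equalled median-of-ratios size factors, so values had been scaled across libraries.

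Comparisons were fitted by limma 3.58.1 (lmFit and trended eBayes, under R 4.3.3) to log2(FPKM + 1), on 10 libraries per comparison and on 20 for the interaction. A gene was tested where 5 or more fitted libraries reached 1 FPKM, p-values were adjusted over all tested genes by Benjamini-Hochberg, and a call needed an adjusted p below 0.05 together with a change of more than 1 log2 unit. Fold changes on this scale understate those of low genes. Sums and shares were compared by exact two-sided permutation tests. The script was tested on simulated data. No 2 libraries of a group held identical values. Nothing in the labels says more than that replicates are numbered samples. The study names 10 ducks, so p-values measure the spread between animals within a group. The tests between tissues and of the interaction treated each library as a separate animal. With 20 libraries of 10 ducks, ducks gave both tissues by the study's account. Which libraries form a pair is not given, so the pairing was not accounted for. The p-values between tissues and of the interaction rest on that treatment of the libraries.

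The members and gene lists were chosen with earlier results of these data known. Named with their values were the 6 largest called differences per direction between tissues, the 6 smallest unadjusted p per diet comparison, the 3 smallest in the interaction, the 5 highest members per tissue and pairs of like role. Other genes were named as the 2 of each list with the largest fold change in CL vs. CM. All 32 members matched a RefSeq gene of the same symbol. No sequence is printed. The entry of the family that was left out, and 1 member kept in the counts but not named or drawn, are not reported here. Alternatives were other pseudocounts, filters, scalings, voom, robust eBayes, a replicate block, all libraries in 1 fit, other call rules and each library left out. Plots were made using matplotlib 3.10.9 (Python 3.11.15).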

Additional observations from a re-analysis of the deposited data

Results flagged for a closer look

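In 96 groups of 5 libraries (23 members and the family sum, in 4 groups each), 7 had a highest or lowest library whose gap to the next was over 0.71 of the group's range. Chance gives such a library in about 1 of 20 groups.

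Of these, 3 were in HM. SLC25A37 was at 14.71 FPKM in HM2, the library with the highest haemoglobin level, and SLC25A44 was at 6.524 FPKM in the same library. SLC25A27 was at 3.558 FPKM in HM5. In HL, SLC25A36 was at 3.019 FPKM in HL5, which is the highest value behind its difference from CL, and SLC25A3 was at 355.9 FPKM in HL3. In CL, SLC25A10 was at 7.352 FPKM in CL1, the lowest of its group, and the citrate carrier SLC25A1 was lowest in the same library, at 128 FPKM. In CM, SLC25A29 was at 8.211 FPKM in CM2. No cause was tested for any of these.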

How the results depend on the processing

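For the sums, shares, counts and members named by the rule given above, 1344 of 1373 values computed under other settings were scored as unchanged, 3 lost and 8 gained a call, and 18 turned their sign. Sums, shares and fold changes scored as unchanged kept their direction and their side of the threshold. Counts of members called were so scored while near the main count, so calls within them could change. Robust eBayes, the replicate block, all libraries in 1 fit and the other call rules leave the fold changes as they were. The directions scored under those settings were thus fixed in advance. Over all members, more calls moved between the tissues. With 1 library left out, 3 members lost a call, 14 times in all (SLC25A26, SLC25A32 and SLC25A36 in HL vs. HM). Under the other settings 5 members lost one, 10 times in all (these 3, SLC25A5 and SLC25A33), 4 gained one, 13 times in all (SLC25A3, SLC25A34, SLC25A47 and SLC25A51), and 7 fell below a stricter filter, while dropping the fold threshold added 7 calls. The number of members called was 0 in HL vs. CL, HM vs. CM and the interaction under every setting run, 16 to 23 for HL vs. HM, and for CL vs. CM 15 to 26. With 1 liver library left out, SLC25A48 and SLC25A21 no longer passed the filter of 5 libraries, and the counts over the libraries left out were 16 to 21 for HL vs. HM, and for CL vs. CM 19 to 21.

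Among the sums, shares and members named by the rule in each comparison, the signs that turned belonged to differences that did not pass their test on the deposited scale. Over all members this did not hold. In CL vs. CM, SLC25A32 and SLC25A44 also turned when scaled to summed FPKM or to total fragments. On the deposited scale they had log2 fold changes of 0.70 and 0.63 (limma, adjusted p = 0.00137 and 0.00187), short of the fold threshold alone. The summed FPKM in HL vs. CL was 127.961 when scaled to summed FPKM and 74.2716 when scaled to total fragments (exact permutation test, p = 0.0873 and 0.317), and -90.5 to 4.56 with 1 library left out. In HM vs. CM it was -29.2383 and -34.6755 under these scalings (p = 0.937 and 0.929, exact permutation test), and -36.5 to 233.9 with 1 library left out. The share of ADP/ATP carriers in HM vs. CM was -0.579 to 0.502 percentage points with 1 library left out. SLC25A37 in CL vs. CM had a log2 fold change of -0.78 when scaled to summed FPKM and -0.75 when scaled to total fragments (limma, adjusted p = 0.00274 and 0.00443), and -0.068 to 0.115 with 1 library left out. SLC25A5 in CL vs. CM lost its call when scaled to summed FPKM (0.54), to total fragments (0.58) or by quantiles (0.80), and SLC25A3 gained one under the same settings in both tissue comparisons.

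Voom on the recovered fragments called 12 members on the liver side and 9 on the muscle side in HL vs. HM, with 13 and 9 for CL vs. CM, and over all genes 24 higher and 3 lower in HL vs. CL. Only between liver and breast muscle could the same number mean the same duck. There the correlations between libraries with the same number were -0.12 to 0.25, beside means of -0.06 to 0.02 with the other numbers. Between the diets, where the same number cannot mean the same duck, they were -0.15 to 0.36. These values do not settle whether the numbers mark pairs, and the main tests did not read them as pairs. With the replicate block, 0 members were called in HL vs. CL, HM vs. CM and the interaction. It called 12 on the liver side and 9 on the muscle side in HL vs. HM (21) and the same numbers in CL vs. CM (21). The 12 calls over all genes in HL vs. CL fell to 0. There the block joins different ducks, so nothing is read from that fall.

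The 5 libraries per group and a median coefficient of variation of 22.6 to 25.3% between libraries limit what the diet comparisons can show. SLC25A40 was below detection, and SLC25A48 and SLC25A21 had few fragments in breast muscle. Between tissues, the scaling decides the direction of members with small differences.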
